A study of Mus musculus with 18 samples.

Results

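The genes described here are 10 genes used to recognise retinal amacrine cells: Tfap2a, Tfap2b, Tfap2c, Pax6, Calb2, Chat, Slc18a3, Th, Slc18a2 and Dab1. They were chosen by symbol, with earlier results of these data known, and 9 of the 10 were found among the 35006 gene names of the count files. Tfap2a, Tfap2b and Tfap2c are listed there under their older symbols Tcfap2a, Tcfap2b and Tcfap2c, and Slc18a3 was not analysed here. Whole retinas of male mice were profiled by poly(A) RNA-seq in 18 libraries. WT were C57BL/6J mice (3 libraries), and WT + NACET were WT mice given N-acetyl-L-cysteine ethyl ester, a cell-permeable cysteine donor, in their drinking water (6 libraries). Akita were untreated C57BL/6-Ins2Akita/J mice (4 libraries), whose mutant insulin 2 gene leads to loss of pancreatic beta cells and diabetes, and Akita + NACET were Akita mice given the same compound (5 libraries). Per the study, the Akita mice were heterozygous, and retinas were taken at week 24. NACET was dissolved at 0.33 mg/mL, for 50 mg/kg a day, and was given from week 4 on, while untreated mice received water. The comparisons ask whether the level of these genes differs between diabetic and normal retinas, and whether it differs with NACET in either.

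Amacrine cells are the inhibitory interneurons of the inner retina. They receive input from bipolar cells and signal to bipolar cells, ganglion cells and each other in the inner plexiform layer. They release GABA or glycine, often together with acetylcholine, dopamine or a peptide. The AP-2 transcription factors and Pax6 keep amacrine identity, and the remaining genes mark subtypes. Chat and Slc18a3 mark the cholinergic starburst cells, Calb2 these and several other types, Th and Slc18a2 the dopaminergic cells, and Dab1 the AII cells of the rod pathway. Several are shared with neighbours: ganglion cells also make calretinin (Calb2) and Pax6, and horizontal cells also make AP-2 factors.

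The results turn on the 4 transcription factor genes Tfap2a, Tfap2b, Tfap2c and Pax6, and promoter sequence is shown for those with a RefSeq entry in the table used here, which has none for Tfap2c or Calb2. The 250 bases before the RefSeq start sites are printed in the direction of transcription, from GRCm38.p6, and were found for 8 of the 10 genes, with 11 start sites in all. Capitals mark matches on either strand to the AP-2 motif GCCNNNGGC, which the AP-2 factors recognise, or to TGACNNNGC, the core of the antioxidant response element bound by NRF2. The upstream Tfap2a start (minus strand, chr13:40734921-40735170) holds 1 match to the second motif, and the downstream Tfap2a start (minus strand, chr13:40733796-40734045) holds neither. Tfap2b (plus strand, chr1:19211804-19212053) has no match either. The upstream Pax6 start (plus strand, chr2:105668646-105668895) holds 1 match to the first. The downstream Pax6 start (plus strand, chr2:105682213-105682462) holds 3 matches to the second.
Tfap2a upstream start: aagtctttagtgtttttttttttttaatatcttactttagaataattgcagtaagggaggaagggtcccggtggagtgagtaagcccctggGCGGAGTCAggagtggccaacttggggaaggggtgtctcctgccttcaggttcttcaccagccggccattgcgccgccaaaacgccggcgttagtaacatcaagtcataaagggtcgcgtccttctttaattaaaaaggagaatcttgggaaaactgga
Tfap2a downstream start: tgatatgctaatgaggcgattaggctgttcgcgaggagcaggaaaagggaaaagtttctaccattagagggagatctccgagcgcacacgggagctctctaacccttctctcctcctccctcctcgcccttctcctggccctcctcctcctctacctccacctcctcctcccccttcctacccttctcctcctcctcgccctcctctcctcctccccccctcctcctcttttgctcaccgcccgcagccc
Tfap2b: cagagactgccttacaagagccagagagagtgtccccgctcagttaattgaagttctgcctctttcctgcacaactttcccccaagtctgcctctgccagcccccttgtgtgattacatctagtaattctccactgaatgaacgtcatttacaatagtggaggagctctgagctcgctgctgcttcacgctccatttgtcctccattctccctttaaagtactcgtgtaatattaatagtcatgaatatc
Pax6 upstream start: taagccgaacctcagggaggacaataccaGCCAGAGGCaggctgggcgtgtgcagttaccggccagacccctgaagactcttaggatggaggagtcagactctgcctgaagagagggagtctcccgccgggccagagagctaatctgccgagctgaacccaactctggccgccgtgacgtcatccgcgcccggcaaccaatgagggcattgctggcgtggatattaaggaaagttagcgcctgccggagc
Pax6 downstream start: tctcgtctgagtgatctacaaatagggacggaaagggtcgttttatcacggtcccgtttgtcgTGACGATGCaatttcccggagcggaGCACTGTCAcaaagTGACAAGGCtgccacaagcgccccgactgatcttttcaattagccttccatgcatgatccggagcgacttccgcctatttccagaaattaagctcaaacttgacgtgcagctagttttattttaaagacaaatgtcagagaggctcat

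Of 32851 mouse promoter windows of 300 bases (250 before and 50 after the start), 16.6% held the AP-2 motif and 12.4% the response element core. Among the 11 windows of these genes, 2 held the first and 2 the second. These matches describe the letters only.

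Library sizes ran from 11495596 to 17814479 gene counts. The share of reads that fell outside annotated exons differed between groups. It was 16.5 ± 1.26% in WT (SD, n = 3), 12.9 ± 2.77% in WT + NACET (n = 6), 11.6 ± 1.85% in Akita (n = 4) and 16.6 ± 2.13% in Akita + NACET (n = 5). Akita and Akita + NACET did not overlap (two-sided exact permutation p = 0.00794, adjusted over 6 pairs 0.0476), nor did WT and Akita (exact p = 0.0286, adjusted 0.0857). Akita replicate 4 stood apart, with a summed level of 698 CPM (counts scaled to library size) for 14 ganglion cell markers where the other Akita libraries had 1424 to 1665, and with the highest summed level of 9 rod markers (205143 CPM). WT + NACET replicate 5 had 15123 CPM of 8 lens and cornea markers, where the other 17 libraries had 2.28 to 1344. The labels do not say whether libraries came from separate mice, so p-values measure the spread between libraries.

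The retinas held transcripts of every analysed member in every library. Relative to length (RPKM, the CPM per kilobase of countable exon), the order of levels in WT was led by the calcium-binding protein gene Calb2 at 700.4 ± 185 (SD, n = 3), followed by Pax6 at 18.2 ± 2.47, Tfap2b at 11.3 ± 0.863 and Tfap2a at 7.10 ± 0.960. Chat had 6.62 ± 1.90, Dab1 5.52 ± 0.643, Slc18a2 5.08 ± 0.553, Tfap2c 3.85 ± 1.14 and Th 1.10 ± 0.152 RPKM. Calb2, Pax6 and Tfap2b each lay clear of the gene below them in all 3 libraries, whereas from Tfap2a down to Tfap2c each gene overlapped the next. Th, whose product makes the dopamine precursor and which marks a sparse cell type, was the lowest and overlapped no other member.
In Akita the order was Calb2, Pax6, Tfap2b, Dab1, Chat, Tfap2a, Slc18a2, Tfap2c and Th, so Tfap2a (4.87 ± 0.367 RPKM, n = 4) stood below Dab1 (5.47 ± 1.05) and Chat (5.31 ± 1.77), with overlapping ranges.

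**Figure D1:**
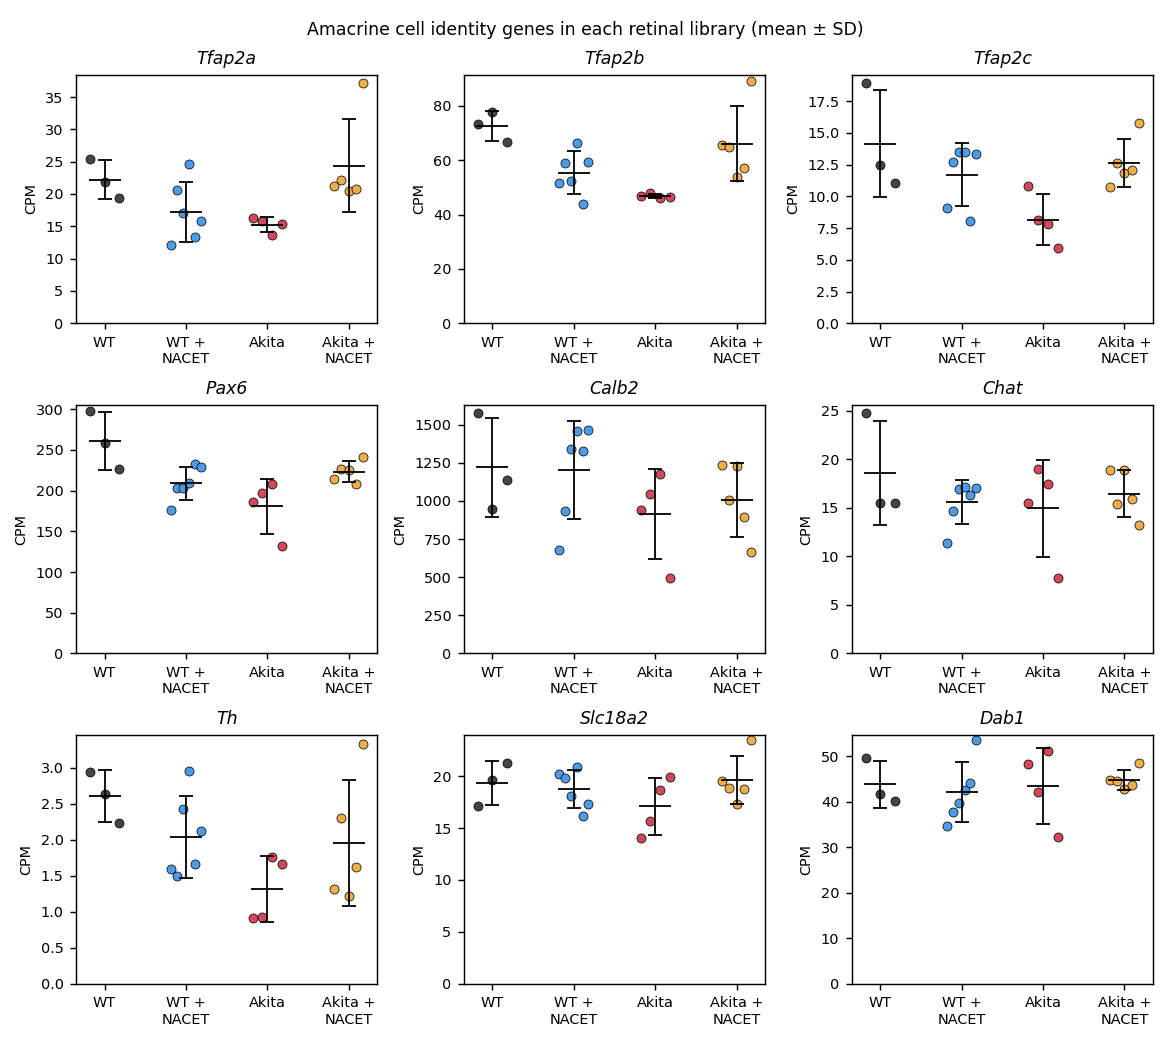
Level of the 9 analysed genes in CPM (vertical axes from 0) in each library of the 4 groups on the horizontal axis; points are libraries, long bars the mean and whiskers the SD. The 4 Akita points of Tfap2b sit between 45.9 and 47.8 CPM, below every WT point, and Akita replicate 4 is the lowest Akita point for Pax6, Calb2, Chat and Dab1.

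Of the 3 AP-2 factors among the members, 2 fell in Akita. Tfap2b (chr1:19198995-19228815, mm9, plus strand), the most abundant of them, fell by 35.5%. Tfap2c (chr2:172375093-172384122, plus strand) fell by 42.1%. Tfap2a (chr13:40811044-40829192, minus strand) had a mean of 15.3 ± 1.15 CPM in Akita and 22.2 ± 3.01 in WT (SD) and did not pass the test. Genes are called where padj, the adjusted p of the quasi-likelihood test of edgeR over the 16183 genes with enough counts, is at most 0.05. Bulk RNA cannot tell fewer amacrine cells from less RNA per cell or from more RNA of other cell types, whose markers are given below.

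Tfap2b was measured at 73.2, 77.5 and 66.6 CPM in WT and at 46.8, 47.8, 45.9 and 46.4 CPM in Akita. Akita + NACET libraries had 65.5, 64.9, 53.7, 57.1 and 89.2 CPM, and WT + NACET had 43.9, 55.7 and 66.4 CPM as the lowest, median and highest of 6. All Akita libraries lay below all WT and all Akita + NACET libraries, and all WT + NACET libraries lay below all WT libraries. On the log2 scale Tfap2b differed by -0.63 ± 0.14 (SE, padj = 0.0169) in Akita vs WT. The difference of Akita + NACET vs Akita, a comparison that shares the Akita libraries, was 0.50 ± 0.13 (SE, padj = 0.0241). For WT + NACET vs WT the value was -0.39 ± 0.13 (SE, padj = 0.122). The difference between the NACET effects in Akita and WT (interaction) was 0.89 ± 0.18 (SE, padj = 0.00410).

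Tfap2a was at 25.4, 21.8 and 19.4 CPM in WT, 16.3, 15.8, 13.6 and 15.4 in Akita and 21.2, 22.2, 20.4, 20.8 and 37.2 in Akita + NACET. The lowest, median and highest WT + NACET libraries had 12.2, 16.4 and 24.6 CPM. Akita was below WT and below Akita + NACET in every library, and Akita + NACET replicate 5 was far above the other 4 of its group. Its log2 difference was -0.54 ± 0.22 (SE, padj = 0.123) in Akita vs WT and 0.68 ± 0.20 (SE, padj = 0.0395) in Akita + NACET vs Akita. It was -0.36 ± 0.20 (SE, padj = 0.325) in WT + NACET vs WT, and the interaction was 1.04 ± 0.28 (SE, padj = 0.0169). Tfap2a shares 111 exonic bases with Gm16989 on the opposite strand, and reads there were not counted for either gene where they could not be told apart.

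Tfap2c, the least abundant of the AP-2 genes among the members, was at 19.0, 12.5 and 11.1 CPM in WT, 10.8, 8.16, 7.79 and 5.97 in Akita and 10.7, 12.6, 11.9, 12.1 and 15.8 in Akita + NACET. WT + NACET had 8.08, 13.0 and 13.5 CPM as lowest, median and highest. Akita lay below WT in every library, and it met Akita + NACET at 1 library each (Akita replicate 1 at 10.8 CPM and Akita + NACET replicate 1 at 10.7). Its log2 difference was -0.79 ± 0.22 (SE, padj = 0.0360) in Akita vs WT and 0.62 ± 0.20 (SE, padj = 0.0498) in Akita + NACET vs Akita. It was -0.28 ± 0.20 (SE, padj = 0.457) in WT + NACET vs WT, and the interaction was 0.90 ± 0.28 (SE, padj = 0.0302). The call of Tfap2c in Akita + NACET vs Akita sits at the threshold and was lost when any of 12 libraries was left out.

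The proportions of the 3 AP-2 genes overlapped between groups. The ratio of Tfap2a to Tfap2b counts was 0.307 ± 0.0352 in WT, 0.309 ± 0.0505 in WT + NACET, 0.327 ± 0.0212 in Akita and 0.366 ± 0.0360 in Akita + NACET (SD, no test), and the ratio of Tfap2c to Tfap2b counts ran from 0.175 ± 0.0420 in Akita to 0.211 ± 0.0299 in WT + NACET.

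Pax6 (chr2:105509053-105543317, mm9, plus strand), the homeodomain factor of amacrine, ganglion and horizontal cells, fell by 30.6% in Akita. It was at 297, 258 and 227 CPM in WT, 186, 197, 208 and 132 in Akita and 215, 227, 225, 208 and 241 in Akita + NACET. WT + NACET had 176, 207 and 233 CPM as lowest, median and highest. No Akita library reached WT, Akita replicate 4 was the lowest of all 18, and Akita replicate 3 and Akita + NACET replicate 4 met at 208 CPM. Pax6 differed by -0.53 ± 0.13 (SE, padj = 0.0236) in Akita vs WT on the log2 scale. The difference was 0.30 ± 0.11 (SE, padj = 0.0887) in Akita + NACET vs Akita and -0.32 ± 0.12 (SE, padj = 0.152) in WT + NACET vs WT. The interaction, 0.62 ± 0.16 (SE, padj = 0.0146), passed the test although neither NACET effect did by itself. Pax6 shares 5542 exonic bases with Elp4 on the opposite strand, and strand was not used in counting. Lens and cornea also make Pax6. In WT + NACET replicate 5, the library with the most lens and cornea markers, Pax6 was the highest of its group at 233 CPM, while Tfap2b (43.9 CPM) and Tfap2c (8.08 CPM) were the lowest of theirs. WT + NACET replicate 6 had Pax6 at 228 CPM with 38.7 CPM of these markers. Akita replicate 2, with 1344 CPM of them, had Pax6 at 197 CPM, below Akita replicate 3 at 208 CPM with 34.0 CPM of them. The part of lens and cornea in these levels was not tested.

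Over the analysed genes, 3 of 9 were called in Akita vs WT (Tfap2b, Tfap2c and Pax6), all lower. Of all genes tested 7.64% were called and 3.68% were called lower. All 9 fold changes were below 0, with a median log2 of -0.53 beside -0.01 over all genes, and Dab1, at -0.01, was above 0 with the size factors of DESeq2. In 5 of 9 genes the groups did not overlap, against 23.2% of all genes. The calls depended on which libraries were in the fit, and how many of all genes were called in the fits without 1 library is not given here. Leaving out WT replicate 1, or WT replicate 2, left none of the 9 called, and leaving out Akita replicate 4 left 1. Without WT replicate 1 the log2 fold change was -0.62 for Tfap2b, -0.52 for Tfap2c and -0.42 for Pax6, and without WT replicate 2 it was -0.58, -0.87 and -0.53. With all libraries these values were -0.63, -0.79 and -0.53, so some estimates moved little while the call was lost. Without Akita replicate 4, Tfap2c (-0.67) and Pax6 (-0.40) lost their calls, and Tfap2c also did without Akita replicate 2 (-0.79) or 3 (-0.76).

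Between Akita + NACET and Akita, 3 of 9 genes were called, the AP-2 factors, all higher. Of all genes 9.65% were called and 4.51% were called higher. All 9 fold changes were above 0, with a median of 0.30, and 2 of 9 did not overlap, against 14.1% of all genes. No call was left when Akita replicate 4, Akita + NACET replicate 2 or Akita + NACET replicate 5 was omitted. Without Akita + NACET replicate 5 the log2 fold change was 0.47 for Tfap2a, 0.37 for Tfap2b and 0.53 for Tfap2c. Omitting Akita replicate 4 gave 0.68, 0.50 and 0.50 for these genes, and omitting Akita + NACET replicate 2 gave 0.71, 0.51 and 0.62. With all libraries the values were 0.68, 0.50 and 0.62. Without Akita + NACET replicate 2 the calls were thus lost at estimates that were no smaller. How many of all genes were called in these fits is not given here. Tfap2a also lost its call without Akita replicate 1 (0.71), 2 (0.69) or 3 (0.62).

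In WT + NACET vs WT none of 9 was called by edgeR or DESeq2, beside 1.48% of all genes. Of the 9 fold changes, all below 0, 2 had an unadjusted p under 0.05. In 1 of 9, Tfap2b, the groups did not overlap, against 11.5% of all genes, and Tfap2b was called (-0.39, padj = 0.0478) when Akita + NACET replicate 5 was left out of the fit. Akita + NACET vs WT gave no call by either tool and no unadjusted p under 0.05, with 0.00618% of all genes called. Its log2 values lay between -0.41 (Th) and 0.13 (Tfap2a). Akita + NACET vs WT + NACET gave no call by edgeR, 2 unadjusted p under 0.05 and 1 call by DESeq2 (Tfap2a), with 13.3% of all genes called. Tfap2a differed there by 0.50 ± 0.17 (SE, padj = 0.0632), and by 0.63 (padj = 0.0208) without WT + NACET replicate 4. The interaction was called in 4 of 9, all higher (Tfap2a, Tfap2b, Tfap2c and Pax6), beside 20.3% of all genes called and 10.1% called higher. Without WT replicate 1, Tfap2b was the 1 gene of these 4 whose interaction was still called, and the values were 0.93 for Tfap2a, 0.63 for Tfap2c and 0.52 for Pax6. Tfap2c also lost it without Akita replicate 3 (0.87), Akita replicate 4 (0.78) or Akita + NACET replicate 5 (0.80).

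**Figure D2:**
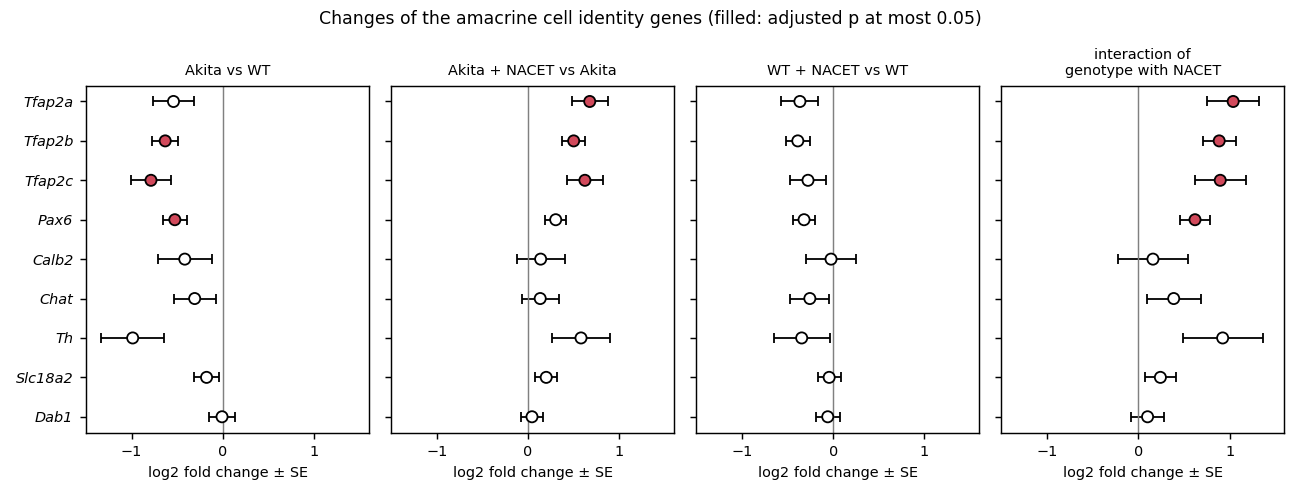
Log2 fold change with its SE (horizontal axes) of the 9 genes in 3 comparisons and in the interaction of genotype with NACET; filled points passed an adjusted p of 0.05 in edgeR. In Akita vs WT and in WT + NACET vs WT all 9 points lie below 0, and in Akita + NACET vs Akita all 9 lie above 0. The filled points are Tfap2b, Tfap2c and Pax6 in Akita vs WT, the 3 AP-2 genes in Akita + NACET vs Akita, and these 4 genes in the interaction.

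Of the genes of cholinergic starburst cells, Chat passed no test. Chat (chr14:33221389-33279095, mm9, minus strand), the enzyme that makes acetylcholine, was at 24.8, 15.5 and 15.5 CPM in WT, 15.5, 19.0, 17.5 and 7.79 in Akita and 18.9, 15.4, 18.9, 15.9 and 13.2 in Akita + NACET, with 11.4, 16.6 and 17.1 as lowest, median and highest in WT + NACET. All groups overlapped, Akita replicate 4 was the lowest library and WT replicate 1 the highest. On the log2 scale Chat differed by -0.31 ± 0.23 (SE, padj = 0.407) in Akita vs WT and by 0.13 ± 0.20 (SE, padj = 0.699) in Akita + NACET vs Akita. The start of Slc18a3, which encodes the vesicular acetylcholine transporter, lies within the Chat gene, an arrangement called the cholinergic locus.

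Calb2 (chr8:112661402-112692110, mm9, minus strand) was at 1576, 945 and 1139.6 CPM in WT, 939, 1045, 1174 and 495 in Akita and 1235, 1006, 1228, 892 and 664 in Akita + NACET, and at 678, 1336 and 1461 as lowest, median and highest in WT + NACET. Libraries of 1 group differed by up to 2.37-fold (Akita), and the groups overlapped. Its difference on the log2 scale was -0.42 ± 0.30 (SE, padj = 0.388) in Akita vs WT. It was 0.14 ± 0.26 (SE, padj = 0.768) in Akita + NACET vs Akita and -0.02 ± 0.28 (SE, padj = 0.972) in WT + NACET vs WT.

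Of the dopaminergic genes, Th (chr7:150078657-150117033, mm9, minus strand), the rate-limiting enzyme of dopamine synthesis, had the largest point estimate of the 9 in Akita vs WT, -0.99 ± 0.35 (SE, padj = 0.0776), and did not pass the test. Its levels were 2.94, 2.64 and 2.23 CPM in WT, 0.912, 0.926, 1.76 and 1.66 in Akita and 1.31, 2.30, 1.21, 1.62 and 3.33 in Akita + NACET, with 1.5, 1.89 and 2.95 as lowest, median and highest in WT + NACET. Every Akita library was below every WT library, at 13 to 28 reads per Akita library and 33 to 41 per WT library, the fewest reads of any member. Th was called in this comparison (log2 -0.99, padj = 0.0485) when Akita + NACET replicate 5 was left out of the fit. Akita + NACET vs Akita gave 0.58 ± 0.31 (SE, padj = 0.227) and the interaction 0.92 ± 0.44 (SE, padj = 0.136).

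Slc18a2 (chr19:59335368-59370502, mm9, plus strand), the vesicular monoamine transporter, was at 17.1, 19.7 and 21.3 CPM in WT, 14.0, 15.7, 18.7 and 20.0 in Akita and 19.6, 18.9, 17.4, 18.8 and 23.5 in Akita + NACET, with 16.2, 19.0 and 20.9 in WT + NACET. Its groups overlapped. It differed by -0.18 ± 0.14 (SE, padj = 0.414) in Akita vs WT and by 0.20 ± 0.12 (SE, padj = 0.280) in Akita + NACET vs Akita on the log2 scale.

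Dab1 (chr4:103291964-104417449, mm9, plus strand), the adaptor of reelin signalling that marks AII cells, had the smallest difference of the analysed members in Akita vs WT and in Akita + NACET vs Akita. It was at 49.7, 41.8 and 40.1 CPM in WT, 48.3, 42.1, 51.3 and 32.3 in Akita and 44.8, 44.5, 42.8, 43.7 and 48.5 in Akita + NACET, with 34.7, 41.2 and 53.7 in WT + NACET. Its log2 difference was -0.01 ± 0.14 (SE, padj = 0.972) in Akita vs WT. It was 0.04 ± 0.13 (SE, padj = 0.854) in Akita + NACET vs Akita and -0.06 ± 0.13 (SE, padj = 0.838) in WT + NACET vs WT, and the 4 groups overlapped.

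Levels of some members moved together from library to library within groups. After group means were removed, 7 chosen pairs of members that share a gene family, a function or a cell type were compared over 18 libraries. The test was a two-sided permutation of libraries within groups, with p-values adjusted over the 7 pairs. Calb2 and Chat were the closest pair, with Pearson's r = 0.920 (p = 1e-05, adjusted p = 7.00e-05) and Spearman's rho = 0.926 (p = 1e-05, adjusted p = 7.00e-05). Here 1e-05 is the smallest p that 100000 resamples can give, and 17 of 18 libraries deviated to the same side for both genes. Without Akita replicate 4 and WT + NACET replicate 1, the libraries farthest from the median of Calb2, r was 0.865 (adjusted p = 0.00322). Among the AP-2 genes, Tfap2a and Tfap2b gave Pearson's r = 0.843 (p = 0.00126, adjusted p = 0.00366) and Spearman's rho = 0.820 (p = 7.60e-04, adjusted p = 0.00236). Tfap2a and Tfap2c gave Pearson's r = 0.687 (p = 0.00157, adjusted p = 0.00366) and Spearman's rho = 0.775 (p = 0.00101, adjusted p = 0.00236). Tfap2b and Tfap2c gave Pearson's r = 0.563 (p = 0.00881, adjusted p = 0.0154) and Spearman's rho = 0.614 (p = 0.0125, adjusted p = 0.0219). With the 2 farthest libraries left out, r was 0.592 (adjusted p = 0.165) for the first of these, 0.696 (adjusted p = 0.0716) for the second and 0.277 (adjusted p = 0.370) for the third. None of the 3 passed the adjusted test then, and Akita + NACET replicate 5 was among the libraries left out in each.

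Tfap2b and Pax6 gave Pearson's r = 0.161 (p = 0.371, adjusted p = 0.371) and Spearman's rho = 0.271 (p = 0.2615, adjusted p = 0.2615). Pax6 and Calb2 gave Pearson's r = 0.697 (p = 0.0132, adjusted p = 0.0185) and Spearman's rho = 0.635 (p = 0.0178, adjusted p = 0.0250). This relation rests on Akita replicate 4 and WT + NACET replicate 1, since r was 0.244 (adjusted p = 0.480) without them. Th and Slc18a2 gave Pearson's r = 0.566 (p = 0.0363, adjusted p = 0.0424) and Spearman's rho = 0.581 (p = 0.0352, adjusted p = 0.0410). It rests on 2 libraries as well, since r was 0.329 (adjusted p = 0.370) without Akita + NACET replicate 5 and WT + NACET replicate 4. Libraries that stood low in Calb2 and Chat also stood low in ganglion cell markers. Akita replicate 4, with 495 CPM of Calb2, had 698 CPM over 14 ganglion cell markers. WT + NACET replicate 1, with 678 CPM of Calb2, had 1008, the lowest value of its group.

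**Figure D3:**
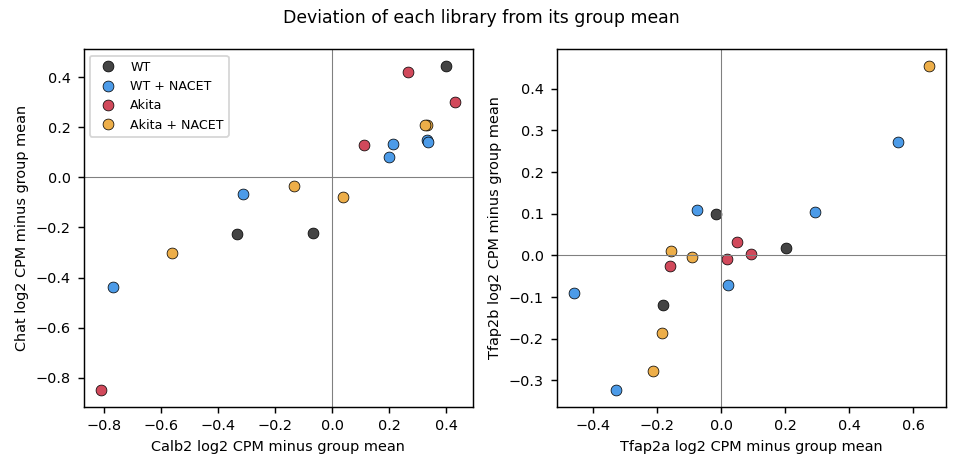
Deviation of each library from its group mean in log2 CPM (horizontal axis the first gene, vertical axis the second) for Calb2 with Chat and for Tfap2a with Tfap2b; 1 point per library, coloured by group. Calb2 and Chat lie along 1 line (r = 0.920), with Akita replicate 4 at the low end, and in the other panel Akita + NACET replicate 5 lies at the upper end.

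The share of reads outside exons was read beside these genes, and within groups its relation to the level passed the adjusted threshold for none of the 9. The share was highest in Akita + NACET replicate 5 (20.0%), which also had the highest Tfap2a and Tfap2b of all 18 libraries. The groups with the lowest means of Tfap2a and Tfap2b, Akita and WT + NACET, also had the lower mean shares. Neither gene was called in WT + NACET vs WT in the fit of all libraries. The relation within groups was chosen after the data had been seen. It was r = 0.558 for Tfap2a (permutation p = 0.0528, Spearman's rho 0.503 with p = 0.0712) and r = 0.559 for Tfap2b (p = 0.0437, rho 0.484 with p = 0.0796). Adjusted over 9 genes, p was 0.237 for both r and 0.279 for both rho. It was r = 0.345 for Tfap2c (p = 0.196, rho 0.311 with p = 0.249) and r = 0.0422 for Pax6 (p = 0.870, rho -0.0361 with p = 0.893). Without Akita + NACET replicate 5 and WT + NACET replicate 2, r was 0.252 for Tfap2a, 0.328 for Tfap2b and 0.191 for Tfap2c.

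With the share as a covariate in the fit, no member was called in any comparison, and the wider amacrine list described below lost its calls too. How many of all genes were called in this fit is not given here. The share differed between groups, without overlap of Akita and Akita + NACET, so its effect and that of the group cannot be told apart. For Akita vs WT, the log2 difference was -0.38 ± 0.16 (SE, padj = 0.349) for Tfap2b and -0.12 ± 0.23 (SE, padj = 0.853) for Tfap2a. It was -0.56 ± 0.27 (SE, padj = 0.403) for Tfap2c and -0.52 ± 0.16 (SE, padj = 0.281) for Pax6. The estimate for Pax6 thus stood at -0.52 beside -0.53 without the covariate, whereas those of Tfap2a, Tfap2b and Tfap2c were nearer to 0. For Akita + NACET vs Akita, Tfap2b had 0.23 ± 0.15 (SE, padj = 0.680), Tfap2a 0.22 ± 0.22 (SE, padj = 0.788) and Tfap2c 0.39 ± 0.25 (SE, padj = 0.685). The interaction was 0.28 ± 0.35 (SE, padj = 0.852) for Tfap2a, beside 1.04 without the covariate, and 0.48 ± 0.40 (SE, padj = 0.742) for Tfap2c, beside 0.90. It was 0.43 ± 0.23 (SE, padj = 0.619) for Tfap2b and 0.60 ± 0.24 (SE, padj = 0.497) for Pax6.

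**Figure D4:**
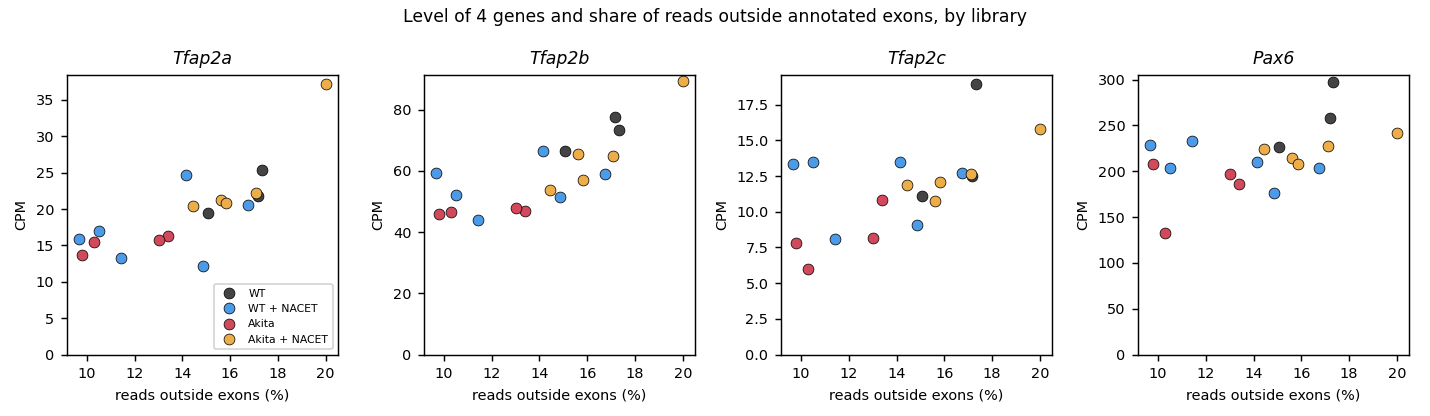
Level in CPM (vertical axes from 0) of Tfap2a, Tfap2b, Tfap2c and Pax6 against the share of reads outside annotated exons in percent (horizontal axes), 1 point per library, coloured by group. Akita libraries lie between 9.79% and 13.4%, Akita + NACET libraries between 14.4% and 20.0%, and Akita + NACET replicate 5 is the highest point for Tfap2a and Tfap2b.

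A wider list of 54 other amacrine genes gave 51 genes with enough counts. Whether other retinal cells also make them was not checked here. In Akita vs WT 12 of them were called lower and 1 higher (3.68% and 3.96% of all genes), with a median log2 fold change of -0.46. NACET in Akita gave 5 calls higher and 1 lower (4.51% and 5.14% of all genes), with a median of 0.32. The groups did not overlap in 21 of 51 genes in the first comparison, against 23.2% of all genes, and in 9 of 51 in the second, against 14.1%. Of the 12 tested transmitter and transporter genes 7 fell in Akita. They included the GABA-synthesising enzymes Gad1 (log2 -0.67 ± 0.17, SE) and Gad2 (-0.55 ± 0.15) and the vesicular GABA and glycine transporter Slc32a1 (-0.57 ± 0.17). They also included the glycine transporters Slc6a9 (-0.66 ± 0.18) and Slc6a5 (-1.06 ± 0.29), and a vesicular glutamate transporter, Slc17a8 (-0.94 ± 0.24). Slc32a1 (0.57 ± 0.15, padj = 0.0269) and Slc6a5 (0.90 ± 0.26, padj = 0.0354) rose in Akita + NACET vs Akita.

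Of 21 tested transcription factor genes of the list, 2 fell in Akita, Ebf3 (-0.90 ± 0.20, padj = 0.0165) and Neurod2 (-0.77 ± 0.22, padj = 0.0409). Over all genes, 3.68% were called lower and 3.96% higher in the untreated diabetic retinas. With NACET 2 rose in Akita, Neurod2 (0.66 ± 0.20, padj = 0.0425) and Ebf1 (0.56 ± 0.16, padj = 0.0409). For this treatment effect the shares over all genes were 4.51% higher and 5.14% lower. The small counts per gene type given here were not tested against such shares. Of 8 neuropeptide genes Vip fell in Akita (-1.14 ± 0.28, padj = 0.0235), from 6.83 ± 0.568 to 3.08 ± 0.755 CPM. NACET in Akita gave no neuropeptide call. Of 10 adhesion, calcium and junction genes, Megf10, a receptor that spaces starburst cells, fell in Akita (-0.98 ± 0.23, padj = 0.0226), as did Megf11 (-0.59 ± 0.15, padj = 0.0252). The reelin receptor gene Vldlr rose (0.42 ± 0.13, padj = 0.0482), the direction of the rod markers given below. Bulk RNA does not show which cells this came from. Pcp4l1 was called lower in Akita + NACET vs Akita (-0.94 ± 0.23, padj = 0.0229), from 396 ± 171 to 206 ± 49.5 CPM.

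In WT + NACET vs WT none of the 51 was called by edgeR or DESeq2, beside 1.48% of all genes called by edgeR, with 11 unadjusted p under 0.05 and a median of -0.19. In Akita + NACET vs WT neither tool called any, beside 0.00618% of all genes called by edgeR, with 5 unadjusted p under 0.05. In Akita + NACET vs WT + NACET 2 genes were called, among them the gap junction gene Gjd2 (0.20 ± 0.06, padj = 0.0483), and both were higher, a direction in which 6.01% of all genes were called. The interaction was called in 12 of 51, all higher, where 20.3% of all genes were called and 10.1% were called higher. Among the 12 were Neurod2 (1.24 ± 0.28, padj = 0.00726) and Megf10 (1.30 ± 0.30, padj = 0.00760). The wider list depended on the same libraries. In Akita vs WT it held no call when WT replicate 1 or 2 was omitted, 1 without Akita replicate 4 and 8 without Akita replicate 1. In Akita + NACET vs Akita it held none without Akita replicate 4 or Akita + NACET replicate 5, and 1 without Akita + NACET replicate 2. Its interaction calls numbered 4 without WT replicate 1, 6 when WT replicate 2 or Akita + NACET replicate 5 was omitted, and 7 without WT + NACET replicate 3.

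Markers of other retinal cell types were read beside these genes. Among all genes, 3.96% were called higher and 3.68% lower in Akita vs WT. The shares were 4.51% higher and 5.14% lower in Akita + NACET vs Akita. The marker lists were not tested against these shares. All 14 ganglion cell markers had negative fold changes in Akita vs WT (median -0.40, none called by edgeR). So did 8 of 9 bipolar markers (median -0.26, none called), 4 of 5 horizontal cell markers (median -0.17, none called) and 7 of 8 Müller glia markers (median -0.39, 2 called lower). All 9 rod markers had positive values, 3 of them called, with a median of 0.47. They had a summed level of 93757 to 128245 CPM in WT and 134757 to 205143 CPM in Akita. Of the cone markers 7 of 8 were positive (median 0.24, none called). Of 8 vascular markers 6 were negative (median -0.47), with 2 called lower, Cldn5 (-2.11) and Pdgfrb (-1.08), and a summed level of 111 to 148 CPM in WT, 87.4 to 121 in Akita and 115 to 145 in Akita + NACET. Several of these lists had values of the same sign as the amacrine genes in Akita + NACET vs Akita. All 14 ganglion cell markers (median 0.24, none called), all 9 bipolar markers (median 0.21, Grik1 called) and all 5 horizontal cell markers (median 0.33, none called) were positive there. So were 7 of 8 vascular markers (median 0.38), with Cldn5 (2.14) and Pdgfrb (1.01) called higher. Of the Müller glia markers 4 of 8 were positive, with 1 called higher. Cone markers were negative in 6 of 8 (median -0.44), with 3 called lower. In the same comparison 6 of 9 rod markers were called lower (median -0.44), and the summed level was 86494 to 117691 CPM in Akita + NACET. The 8 pigment epithelium markers summed to 107 to 499 CPM in WT, 467 to 1104 in WT + NACET, 47.3 to 164 in Akita and 79.7 to 489 in Akita + NACET. The part of these cell types in the levels of the amacrine genes was not tested.

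**Figure D5:**
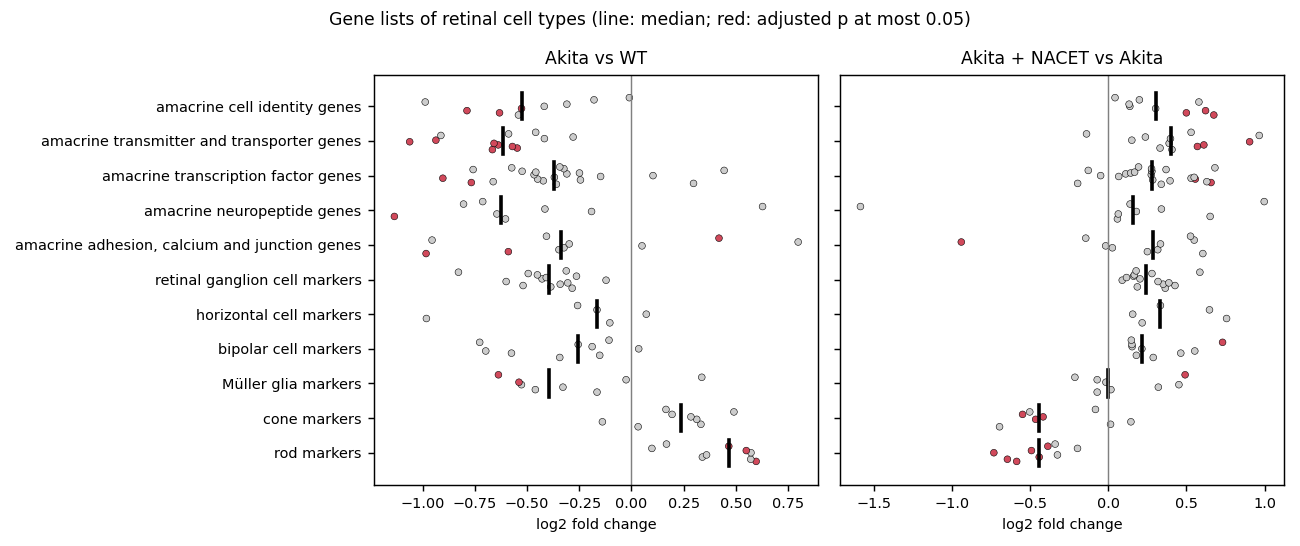
Log2 fold change (horizontal axes) of each gene of 11 gene lists in Akita vs WT (left) and Akita + NACET vs Akita (right); points are genes, red where the adjusted p is at most 0.05, and black lines the list medians. In Akita vs WT the medians of the amacrine, ganglion, horizontal, bipolar and Müller lists lie below 0 and those of cones and rods above 0, and in Akita + NACET vs Akita rods and cones lie below 0 (rod median -0.44).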

How the data were processed

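The deposited files hold raw read counts per gene, not normalized, 1 file per library. Per the labels and the methods of the study, poly(A) libraries (TruSeq RNA v2) were sequenced as single reads. The authors aligned them to mm9 with TopHat2 2.1.0 and counted reads over exons with HTSeq 0.11.2, without strand. Here 206 ribosomal RNA genes were removed, as in the study (0.977% of counts), and the entry without a name (0.00544%) was left out, leaving 34800 genes. Groups came from sample titles. CPM used TMM library sizes, and log2 CPM a prior count of 2. All 4 groups entered 1 edgeR 4.0.16 quasi-likelihood fit (R 4.3.3, filter on low counts with a minimum of 10, Benjamini-Hochberg adjustment over 16183 genes). The fit was also run on simulated counts, which held no difference in outside-exon share between groups, and the outcome is not reported here. DESeq2 1.42.0, its size factors, no filter, a replicate block, a covariate, fits of the compared groups only and leaving out each library were alternatives. The members and lists were chosen with earlier results of these data known. All members are named. Of the wider amacrine list the rule named at most 3 genes in each direction and comparison, with the smallest p among those called, and 1 of them is not reported here. Gad1, Gad2, Slc6a9, Slc17a8, Ebf1, Megf11, Grik1, Cldn5, Pdgfrb and the values of Slc32a1, Slc6a5 and Neurod2 in Akita vs WT and of Neurod2 in Akita + NACET vs Akita were named after they were seen. Coordinates are mm9, and promoter sequences are RefSeq's on GRCm38.p6.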

Additional observations from a re-analysis of the deposited data

Results flagged for a closer look

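Tfap2a in Akita + NACET replicate 5, at 37.2 CPM, lay far from the other 4 libraries of its group (20.4 to 22.2 CPM), with 0.893 of the group's range between it and its nearest neighbour. Of 27 groups of 4 to 6 libraries checked over the 9 genes this was the 1 that stood out. The rule flags about 1 in 20 by chance where checks are independent, but these checks share libraries, so the count of flags decides nothing. Akita + NACET replicate 5 was also the highest of its group for Tfap2b (89.2 CPM) and Tfap2c (15.8 CPM). It was the lowest for Calb2 (664 CPM) and Chat (13.2 CPM). The cause was not tested.

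The NACET effect differed between Akita and WT in 4 genes by the interaction term of the edgeR fit: Tfap2a (log2 1.04 ± 0.28, padj = 0.0169), Tfap2b (0.89 ± 0.18, padj = 0.00410), Tfap2c (0.90 ± 0.28, padj = 0.0302) and Pax6 (0.62 ± 0.16, padj = 0.0146), where 20.3% of all genes passed. In each, the NACET libraries had a higher mean than untreated libraries in Akita and a lower mean in WT: Tfap2b was at 46.7 ± 0.793 CPM in Akita and 66.1 ± 13.9 in Akita + NACET, and at 72.5 ± 5.51 in WT and 55.4 ± 7.83 in WT + NACET.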

How the results depend on the processing

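Of the members, 3 were called in Akita vs WT, 3 between Akita + NACET and Akita, none in WT + NACET vs WT, Akita + NACET vs WT and Akita + NACET vs WT + NACET, and 4 in the interaction. Leaving out each library in turn gave 0 to 4, 0 to 3, 0 to 1, 0 to 0, 0 to 1 and 1 to 4 calls, in that order. The wider list gave 13, 6, 0, 0, 2 and 12 calls, and 0 to 14, 0 to 9, 0 to 1, 0 to 0, 0 to 3 and 4 to 15 with each library left out. With the outside-exon share in the fit every count above 0 became 0. Fits of only the groups compared gave 1 member and 3 of the wider list in Akita vs WT. Without the filter 1 member was called in Akita + NACET vs Akita, and 1 gene of the wider list in Akita + NACET vs WT + NACET. DESeq2 called 1 member in Akita + NACET vs WT + NACET, and 13 and 4 genes of the wider list in Akita + NACET vs Akita and Akita + NACET vs WT + NACET. The shares of all genes called in these alternative fits are not given here, and the cause was not tested.

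Replicate numbers are shared between groups, and of 22 same-numbered pairs 4 deviated together with r above 0.1 (range -0.33 to 0.34). Pairs with different numbers were not compared, so these values cannot decide whether equal numbers mark a shared batch. With a replicate block 1 member was called in Akita vs WT and 0 between Akita + NACET and Akita. The wider list had 4 and 0 calls in these, 1 in WT + NACET vs WT, 0 in Akita + NACET vs WT + NACET and 6 in the interaction. The block changed no other count by over 1.5 times.

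Signs turned in differences that passed no test. On the log2 scale the covariate gave -0.078 for Tfap2c, 0.053 for Calb2 and -0.0090 for Slc18a2 in Akita + NACET vs WT + NACET, and 0.022 for Slc18a2 in WT + NACET vs WT. The block gave 0.029 for Calb2 in WT + NACET vs WT, -0.022 for Slc18a2 in Akita + NACET vs WT and 0.010 for Dab1 in Akita vs WT, where DESeq2 gave 0.0043 and its size factors 0.00050. With each library left out, Akita + NACET vs Akita ranged from -0.067 to 0.28 for Calb2, -0.074 to 0.27 for Chat and -0.074 to 0.13 for Dab1. WT + NACET vs WT ranged from -0.18 to 0.20 for Calb2, -0.37 to 0.0060 for Chat, -0.12 to 0.033 for Slc18a2 and -0.14 to 0.040 for Dab1. Akita + NACET vs WT ranged from -0.069 to 0.24 for Tfap2a, -0.30 to 0.10 for Tfap2c, -0.29 to 0.084 for Chat, -0.062 to 0.11 for Slc18a2 and -0.016 to 0.13 for Dab1. Akita vs WT ranged from -0.099 to 0.11 for Dab1, Akita + NACET vs WT + NACET from -0.34 to 0.076 for Th and -0.010 to 0.10 for Slc18a2, and the interaction from -0.067 to 0.31 for Calb2 and -0.015 to 0.19 for Dab1. Without the 2 libraries farthest from the median, r fell short of the adjusted threshold for Tfap2a and Tfap2b (0.59), Tfap2a and Tfap2c (0.70), Tfap2b and Tfap2c (0.28), Pax6 and Calb2 (0.24) and Th and Slc18a2 (0.33). Depth limits Th most, with 13 to 52 reads per library.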
